A study of Mus musculus with 17 samples.

Results

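The response of control mouse liver to GW3965, a synthetic compound that activates liver X receptors (LXR), was measured by messenger RNA sequencing in 8 of the 17 libraries of the series. Of these 8, 4 came from mice given GW3965 and 4 from mice given vehicle, and they were compared across 13379 genes that passed a filter on low values. All mice were male, of mixed strain and homozygous for a loxP-flanked Gata4 allele, and were 11 weeks old by the sample labels, where the series design text gives another age. The control mice had received an empty adeno-associated virus of serotype 8 (AAV8) 1 week earlier, so both control groups carry the floxed allele and have met the viral capsid. GW3965 was gavaged in canola oil at 40 mg/kg, 17 h and again 8 h before sacrifice, after which livers were taken from mice fasted for 4 h, and vehicle was dimethylsulfoxide in canola oil. The other 9 libraries came from mice labelled Gata4LKO, which had received AAV8 carrying Cre recombinase under the hepatocyte promoter Tbg (4 given vehicle and 5 given GW3965). They serve here as a second set of animals given the same treatments.

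Libraries were chosen by sample title. The treatment characteristic contradicts the title in 8 libraries, among them all 4 of the control GW3965 group, whose treatment field reads vehicle. Measured values were not used to assign any library. Control vehicle libraries are numbered 1 to 4 and control GW3965 libraries 9, 10, 12 and 13, as in the titles, and values for single libraries are given in that order. The labels do not say that each library is from a separate mouse, so p-values measure the spread between these libraries.

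LXR alpha (Nr1h3) and LXR beta (Nr1h2) are nuclear receptors that sense oxidised forms of cholesterol. They bind DNA as partners of the retinoid X receptor, at paired half-sites known as DR4 elements. In liver they are known for raising genes that export sterols and remodel phospholipids, and for raising the lipogenic transcription factor gene Srebf1 and the enzymes that make fatty acids. In macrophages they are known for both sterol efflux and the damping of inflammatory genes.

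The control libraries held 15.38 to 20.07 M reads in genes and 17056 to 18970 genes above 0. Mitochondrially encoded genes took 15.6% to 32.6% of normalized counts in 5 of the 17 libraries and 6.06% to 7.26% in the remaining 12. Of these 5, 3 are control libraries, namely vehicle library 1 and GW3965 libraries 10 and 13, and the first principal component of the 8 control libraries (29.5% of variance) set those 3 apart from the rest. The second component (19.8%) was above 0 in the 4 vehicle libraries and below 0 in the 4 GW3965 libraries. Liver identity was plain in all 8: Alb, the serum albumin gene, was between 1107220.0 and 1722490.0 normalized counts. None of 8 hepatocyte marker genes passed the test for GW3965 (log2 differences from -0.60 to 0.03, median -0.11, 6 negative). The receptors themselves did not pass the test either. Nr1h3 was at 916 ± 91.1 with vehicle and 843 ± 58.7 with GW3965, and Nr1h2 at 341 ± 12.4 and 311 ± 60.4 (mean ± SD of normalized counts, n = 4 each).

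Among called genes, far more were higher than lower with GW3965, while over all genes tested 6571 differences were positive and 6808 negative. With limma on log2(normalized count + 1) and Benjamini-Hochberg adjustment, 106 of 13379 genes passed an adjusted p of 0.05 (0.792%). Of these, 81 were higher (0.605%) and 25 lower (0.187%). The log2 differences, GW3965 minus vehicle, ran from 0.46 to 3.47 among the higher genes (median 1.12) and from -0.46 to -2.70 among the lower ones (median -0.98). The 4 GW3965 libraries did not overlap the 4 vehicle libraries in 105 of the 106 genes (Rin2 is the exception). Over all genes tested this held for 5.84% (3.13% with GW3965 higher and 2.71% lower). The genes were called on these same libraries, so their lack of overlap is no separate support. The size of the response differed between libraries: GW3965 library 10 was the highest of its group in 48 of the 81 higher genes and library 13 the lowest in 37. Leaving out 1 library at a time gave 22 (without GW3965 library 10) to 109 calls (without GW3965 library 13). The count was 31, 37, 42, 45 and 66 without vehicle library 3, 4 or 2 or GW3965 library 12 or 9, and 17 of the 106 genes kept their call in all 8 fits. When those 5 mitochondria-rich libraries were left out, limma called 64 of 13034 genes (0.491%). That fit kept vehicle libraries 2, 3 and 4 and GW3965 libraries 9 and 12 of the control groups. Its calls hold 44 of the 106. All 106 kept their sign, which the lack of overlap fixed in advance for 105 of them.

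**Figure D1:**
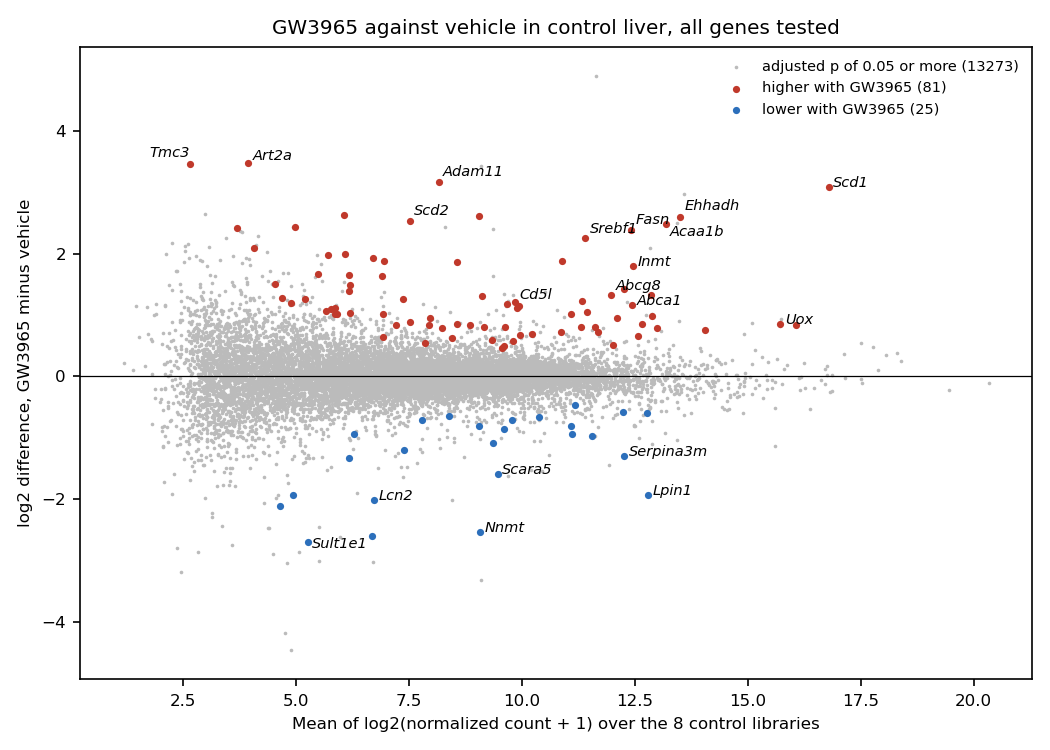
Each point is 1 of the 13379 genes tested. The x axis is the average log2(normalized count + 1) of the 8 control libraries and the y axis the log2 difference, GW3965 minus vehicle. Genes past an adjusted p of 0.05 are red where higher (81) and blue where lower (25), and the named genes lie at both ends of the response, from Art2a and Tmc3 near 3.5 to Sult1e1 at -2.70.

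Known LXR targets of the sterol and phospholipid arm rose in part. Of 18 tested genes of this list, 9 were higher and 0 lower, 17 had positive log2 differences, and the median was 0.76. Over all genes tested 0.605% were higher, 6571 of 13379 were positive and the median was -0.01. The list was drawn up from known LXR targets with earlier results of these data known. The 9 that rose were the sterol transporters Abca1, Abcg1, Abcg5 and Abcg8, the lipases and lipid-modifying genes Lpl, Lpcat3 and Pltp, the ubiquitin ligase Rnf145 and the membrane protein gene Tmem135. With the 5 mitochondria-rich libraries left out, 5 of the 18 were called (Abca1, Abcg1, Abcg8, Rnf145 and Lpl), at a median of 0.72, and the limma adjusted p was 0.0967 for Abcg5, 0.0592 for Lpcat3, 0.143 for Pltp and 0.0767 for Tmem135.

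Abca1 (ENSMUSG00000015243; chromosome 4, 53030787 to 53159895, minus strand, mm10) encodes the exporter that loads cellular cholesterol and phospholipid onto apolipoprotein A1. Abca1 was at 3453, 4272, 3566 and 3663 normalized counts with vehicle and 6088, 13612, 8804 and 6771 with GW3965. Abca1 was 2.25-fold higher with GW3965 (log2 difference 1.17 ± 0.18, limma adjusted p = 0.00653). Every GW3965 library was above every vehicle library, and library 10 stood highest.

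Abcg1 was at 78.3, 74.6, 44.5 and 62.1 normalized counts with vehicle and 172, 411, 282 and 155 with GW3965. This transporter passes cholesterol on to mature high-density lipoprotein. Abcg1 was 3.68-fold higher with GW3965 (log2 difference 1.88 ± 0.29, limma adjusted p = 0.00572). The groups did not overlap, and the lowest GW3965 library (13) was still far above the highest vehicle library.

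Abcg5 and Abcg8 encode the paired subunits of the transporter that secretes cholesterol and plant sterols into bile, and lie head to head on chromosome 17 with overlapping annotated spans (GENCODE M21, mm10). Abcg8 was at 2516, 2323, 2429 and 2929 normalized counts with vehicle and 5208, 8627, 6714 and 5533 with GW3965. Abcg8 was 2.52-fold higher with GW3965 (log2 difference 1.33 ± 0.18, limma adjusted p = 0.00279). Abcg5 was at 1368, 1739, 1793 and 1865 normalized counts with vehicle and 3567, 4798, 4641 and 3047 with GW3965. Abcg5 was 2.35-fold higher with GW3965 (log2 difference 1.23 ± 0.23, limma adjusted p = 0.0192). In both genes the groups did not overlap, and library 10 was the highest. Whether counting used strand is not stated in these sources, so reads from the shared span cannot be told apart.

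Lpl was at 227, 171, 228 and 171 normalized counts with vehicle and 428, 1106, 703 and 816 with GW3965. Lpl encodes lipoprotein lipase, which hydrolyses triglyceride in circulating lipoproteins and is low in adult hepatocytes. Lpl was 3.64-fold higher with GW3965 (log2 difference 1.87 ± 0.32, limma adjusted p = 0.0105). Lpcat3, the acyltransferase that puts polyunsaturated chains into membrane phospholipid, differed by 1.02 ± 0.19 (limma adjusted p = 0.0175), and Pltp, the plasma phospholipid transfer protein, by 0.95 ± 0.21 (limma adjusted p = 0.0447). Rnf145 was at 328, 375, 344 and 364 normalized counts with vehicle and 978, 1165, 873 and 581 with GW3965. Rnf145 encodes a sterol-responsive ubiquitin ligase of the endoplasmic reticulum. Rnf145 was 2.47-fold higher with GW3965 (log2 difference 1.30 ± 0.22, limma adjusted p = 0.0105). Tmem135, a gene linked to peroxisomes and mitochondria, differed by 0.73 ± 0.13 (limma adjusted p = 0.0136).

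The other 9 members did not pass. Mylip, which encodes the ubiquitin ligase IDOL that degrades the LDL receptor, was at 192, 151, 192 and 197 with vehicle and 183, 244, 430.2 and 421 with GW3965, so that libraries 10, 12 and 13 were above all vehicle libraries and library 9 was not (limma adjusted p = 0.227). Apoe differed by 0.11 ± 0.23 and Smpdl3a by 0.26 ± 0.16. Cyp7a1, the rate-limiting enzyme of bile acid synthesis and a known LXR target in rodents, differed by 0.34 ± 0.37 (limma adjusted p = 0.913), with GW3965 libraries on both sides of the vehicle range at 7995, 5719, 19346 and 16432 against 10118, 7392, 7438 and 10246. Abca1, Abcg1 and Abcg8 kept their calls in all 8 fits that left out 1 library. Rnf145, Lpl and Tmem135 did so in 7 of 8 (adjusted p = 0.0526, 0.0526 and 0.0637 without GW3965 library 10), Abcg5 and Lpcat3 in 5 of 8 (up to 0.087 without GW3965 library 10 and 0.0703 without vehicle library 3), and Pltp in 2 of 8 (up to 0.15 without vehicle library 2).

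**Figure D2:**
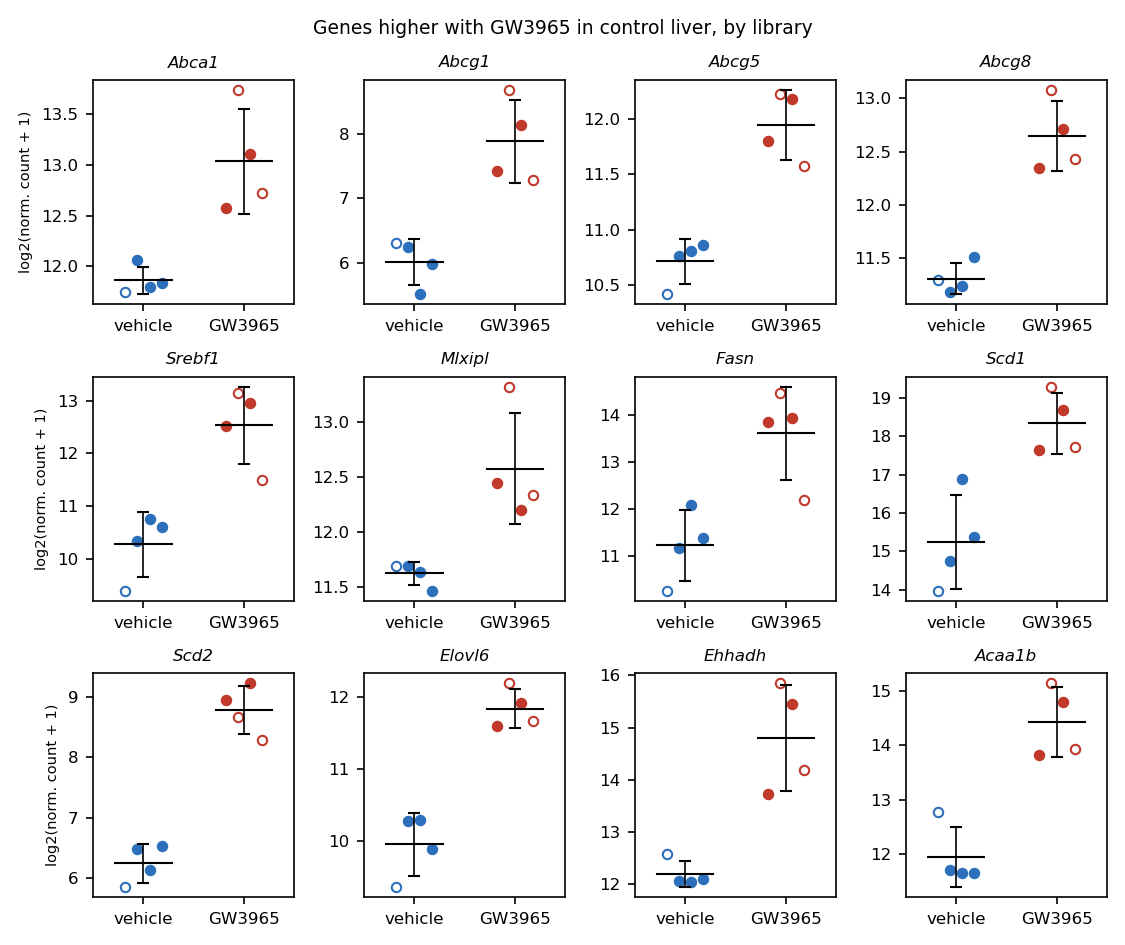
Log2(normalized count + 1) in each control library for 12 genes that rose, with vehicle in blue and GW3965 in red. Horizontal bars are group means, error bars are 1 SD (n = 4 each), and open circles are the 3 mitochondria-rich libraries. In all 12 panels the GW3965 points lie above the vehicle points, and library 10, the upper open circle, is often the highest.

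Promoter windows of Abca1, Fasn and Srebf1 are shown because each holds a match to an LXR-type element. The pattern was searched with these known targets in view, so that its counts only describe the windows and give no independent evidence. The RefSeq promoter table (GRCm38.p6; 250 bases before to 50 after each start) held 63 of the 81 higher genes and 18 of the 25 lower genes. The pattern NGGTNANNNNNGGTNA, a DR4 pair of half-sites with N for any base, was sought on both strands. It was in 3 of the 63 higher genes (Abca1, Fasn and Srebf1) and 0 of the 18 lower genes, against 0.718% of all 32851 windows and 0.624% of the 10102 tested genes with a window. The 3 windows follow, 5′ to 3′ on the gene's own strand, with the matched bases in capitals; each match reads on the opposite strand. The window of Abca1 is chr4:53159846-53160145 (minus strand), that of Fasn chr11:120824498-120824797 (minus strand) and that of Srebf1 chr11:60210422-60210721 (minus strand), the last being 1 of 3 windows of that gene.
Abca1: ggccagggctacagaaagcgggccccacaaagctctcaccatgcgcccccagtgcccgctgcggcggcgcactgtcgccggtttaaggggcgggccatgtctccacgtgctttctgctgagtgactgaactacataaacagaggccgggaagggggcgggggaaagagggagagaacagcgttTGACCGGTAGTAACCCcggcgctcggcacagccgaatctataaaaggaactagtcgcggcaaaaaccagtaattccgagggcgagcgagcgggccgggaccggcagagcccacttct
Fasn: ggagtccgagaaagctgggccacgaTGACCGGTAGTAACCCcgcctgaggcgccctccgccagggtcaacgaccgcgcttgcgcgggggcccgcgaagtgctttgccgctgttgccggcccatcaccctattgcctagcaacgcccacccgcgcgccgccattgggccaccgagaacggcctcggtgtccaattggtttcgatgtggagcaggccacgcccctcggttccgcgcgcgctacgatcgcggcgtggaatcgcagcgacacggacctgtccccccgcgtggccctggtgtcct
Srebf1: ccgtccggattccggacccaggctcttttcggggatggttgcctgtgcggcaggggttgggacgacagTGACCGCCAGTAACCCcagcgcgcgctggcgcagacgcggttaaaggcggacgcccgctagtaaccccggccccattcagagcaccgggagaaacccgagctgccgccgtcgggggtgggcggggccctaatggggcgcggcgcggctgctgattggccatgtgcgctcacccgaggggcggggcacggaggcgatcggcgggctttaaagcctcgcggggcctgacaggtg
On the strand that fits the pattern the match reads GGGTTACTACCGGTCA in Abca1 and in Fasn, equal in 16 of 16 letters, and GGGTTACTGGCGGTCA in Srebf1, equal to the others in 14 of 16. The matches end 51 bases before the start in Abca1, 209 in Fasn and 166 in Srebf1. A DR1 pattern, NGGTNANNGGTNA, which PPAR dimers favour, was in 1 of the 63 higher genes (Mlxipl) and 1.10% of all windows. A match describes letters in a short window and not binding.

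Several genes that control fatty acid synthesis or carry it out rose with GW3965. The lipogenic regulators Srebf1 and Mlxipl rose, 2 of 15 genes of the SREBP and ChREBP system (median -0.05, 6 positive). So did 2 of 15 genes of de novo synthesis (Fasn and Acaca, median 0.57, 14 positive). Of 17 elongases and desaturases 5 rose (Scd1, Scd2, Elovl6, Elovl5 and Fads2, median 0.18, 13 positive). Over all genes tested 0.605% were higher and 49.1% had positive differences. No gene of these 3 lists was lower. With the 5 mitochondria-rich libraries left out, the regulators fell from 2 calls to 1 (Srebf1), de novo synthesis from 2 to 1 (Acacb, limma adjusted p = 0.0346) and the elongases and desaturases from 5 to 3 (Scd2, Elovl6 and Fads2). The limma adjusted p was then 0.174 for Scd1, 0.0827 for Fasn, 0.145 for Acaca, 0.142 for Mlxipl and 0.212 for Elovl5.

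Srebf1 was at 669.5, 1283, 1732 and 1559.8 normalized counts with vehicle and 5884, 9011, 7986 and 2888 with GW3965. Srebf1 encodes the sterol regulatory element-binding protein that drives fatty acid synthesis genes. Srebf1 was 4.79-fold higher with GW3965 (log2 difference 2.26 ± 0.40, limma adjusted p = 0.0136). The groups did not overlap. Library 13 had the lowest value of the treated group, and vehicle library 1 the lowest of all.

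Mlxipl was at 3314, 3307, 3189 and 2827 normalized counts with vehicle and 5582, 10266, 4712 and 5187 with GW3965. Mlxipl encodes ChREBP, the carbohydrate-responsive partner of this programme. Mlxipl was 1.94-fold higher with GW3965 (log2 difference 0.96 ± 0.21, limma adjusted p = 0.042). Library 10 was far above the other 3 treated libraries, which were themselves above all vehicle libraries. Srebf2, the regulator of cholesterol synthesis, did not pass (-0.42 ± 0.27, limma adjusted p = 0.786). Insig1, which retains SREBP in the endoplasmic reticulum, was at 1594, 2665, 2818 and 2329 and 3782, 4963, 3939 and 3135 (0.76 ± 0.18, limma adjusted p = 0.0524) and narrowly missed the threshold.

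Fasn was at 1220.3, 2308, 4351 and 2678 normalized counts with vehicle and 14816, 22849.9, 15804 and 4661 with GW3965. Fasn encodes fatty acid synthase. Fasn was 5.25-fold higher with GW3965 (log2 difference 2.39 ± 0.50, limma adjusted p = 0.0346). Library 13 lay just above the highest vehicle library, and the other 3 treated libraries lay well above it. Acaca, which encodes the cytosolic acetyl-CoA carboxylase, was at 331, 612, 731 and 562 with vehicle and 1328, 1445, 1351 and 873 with GW3965 (1.19 ± 0.26, limma adjusted p = 0.0388), again with no overlap. Its mitochondrial counterpart Acacb overlapped in 1 library, at 437, 865, 1513 and 1164 and 3518, 1444, 3244 and 1882 (limma adjusted p = 0.0654). Acly, which makes cytosolic acetyl-CoA, and the lipogenic factor Thrsp did not pass either (0.66 ± 0.24 and 1.22 ± 0.36).

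Scd1 and Scd2 encode stearoyl-CoA desaturases and lie 87.6 kb apart on chromosome 19. Scd1 was at 16128, 27608, 120511 and 42202 normalized counts with vehicle and 206231, 641814, 423383 and 216279 with GW3965. Scd1 was 8.55-fold higher with GW3965 (log2 difference 3.10 ± 0.60, limma adjusted p = 0.0215). Vehicle libraries of Scd1 spread widely, with library 3 the highest, and still did not reach the treated group. Scd2 was at 56.8, 89.1, 69.1 and 91.2 normalized counts with vehicle and 493, 404, 597 and 311 with GW3965. Scd2 was 5.77-fold higher with GW3965 (log2 difference 2.53 ± 0.20, limma adjusted p = 4.65e-06). Scd2 had a narrow spread within each group and the lowest adjusted p of all genes tested. Reads that match more than 1 of the related Scd genes may be shared between them, which the labels do not settle.

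Elovl6 was at 657, 1238, 1249 and 951 normalized counts with vehicle and 3087, 4662, 3840.1 and 3228 with GW3965. This elongase lengthens palmitate to stearate. Elovl6 was 3.68-fold higher with GW3965 (log2 difference 1.88 ± 0.24, limma adjusted p = 0.00132). The lowest treated library was well above the highest vehicle library. Fads2 and Elovl5, which act on polyunsaturated chains, differed by 0.99 ± 0.21 (limma adjusted p = 0.0349) and 0.79 ± 0.17 (limma adjusted p = 0.0368), while the delta-5 desaturase Fads1 did not pass (0.18 ± 0.11).

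Scd2 and Elovl6 kept their calls in all 8 fits that left out 1 library, and Srebf1 in 7 of 8. The others depended on single libraries. Without GW3965 library 10 the adjusted p was 0.0709 for Srebf1, 0.0951 for Scd1, 0.142 for Fasn, 0.149 for Acaca, 0.147 for Elovl5 and 0.132 for Fads2, and for Mlxipl it reached 0.128 without vehicle library 4. Elovl5 kept its call in 0 of the 8 fits, Acaca in 1, Fasn, Mlxipl and Fads2 in 2 and Scd1 in 3.

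**Figure D3:**
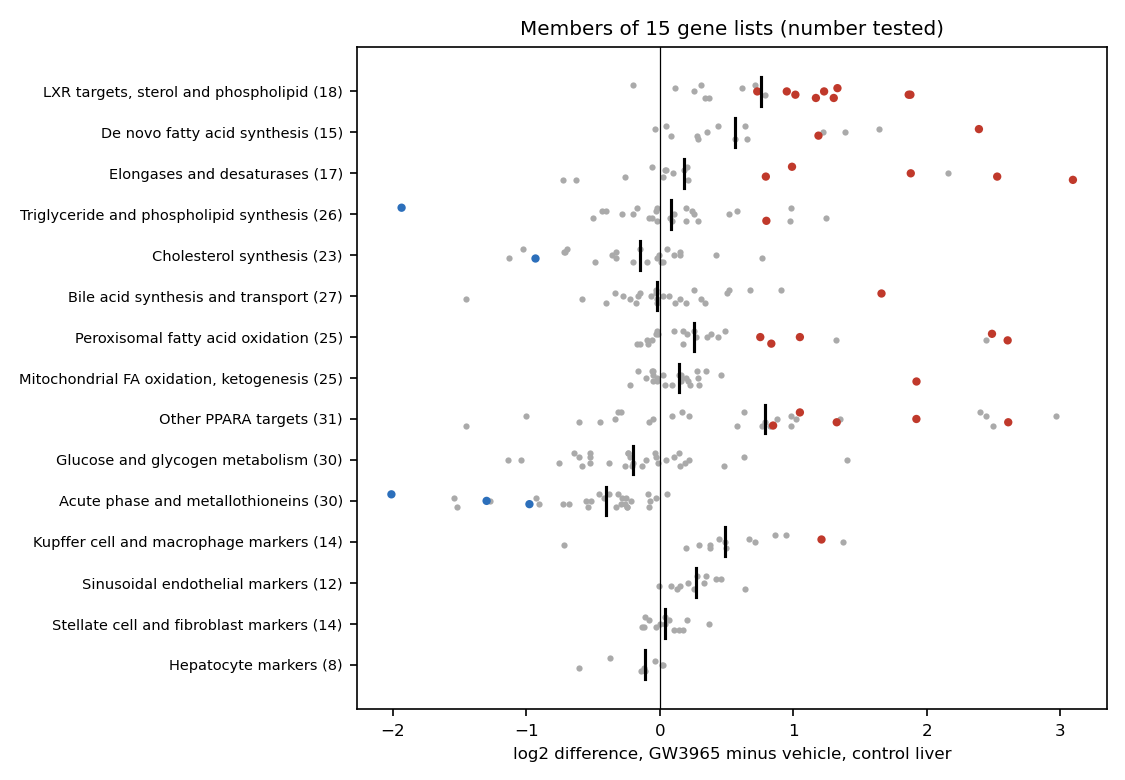
Each point is 1 tested gene of 15 lists, placed by its log2 difference, GW3965 minus vehicle, in control liver; the number tested is in brackets. Red points passed the test as higher, blue points as lower and grey points did not pass, and black bars are list medians. The medians of the LXR targets (0.76) and other PPARA targets (0.79) lie farthest to the right and that of the acute phase genes (-0.40) farthest to the left.

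In triglyceride assembly 1 gene rose and 1 fell. Of 26 tested genes of triglyceride and phospholipid synthesis 1 was higher and 1 lower (median 0.08), against 0.605% and 0.187% of all genes tested. Gpam, the mitochondrial acyltransferase that starts glycerolipid synthesis, was at 2014, 2147, 2962 and 2516 with vehicle and 3823, 4558, 5013 and 3378 with GW3965 (0.80 ± 0.16, limma adjusted p = 0.0254). Lpin1 was at 11952, 11552, 18333 and 14963 normalized counts with vehicle and 2733, 1423, 5582 and 8134 with GW3965. Lpin1 encodes a phosphatidate phosphatase that also acts as a transcriptional coactivator in liver. Lpin1 was 3.83-fold lower with GW3965 (log2 difference -1.94 ± 0.39, limma adjusted p = 0.0284). The treated libraries ranged widely, from library 10 at the bottom to library 13 at the top, and all were below the vehicle group. Acsl5, an acyl-CoA synthetase, rose by 0.66 ± 0.13 (limma adjusted p = 0.0284). Gpam kept its call in 3 of 8 fits with 1 library left out (up to 0.102 without GW3965 library 10), Lpin1 in 3 (up to 0.113 without vehicle library 3) and Acsl5 in 2 (up to 0.114 without GW3965 library 10). None of 18 lipid droplet genes passed (median -0.09), where 0.792% of all genes tested did.

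Of the cholesterol synthesis genes a single one fell. Among 23 tested, 1 was lower and 0 higher, 8 were positive and the median was -0.15. The shares over all genes tested were 0.187% lower, 0.605% higher and 49.1% positive. Cyp51, the lanosterol demethylase, was at 3224, 2281, 4036 and 2932 with vehicle and 1579, 1715, 1261 and 1912 with GW3965. Cyp51 was 1.91-fold lower with GW3965 (log2 difference -0.93 ± 0.21, limma adjusted p = 0.0442). The groups did not overlap, and the adjusted p rose to 0.181 without vehicle library 3 (called in 2 of 8 such fits). Sqle, the squalene epoxidase, had the same sign at 411, 776, 1264 and 873 and 683, 266, 303 and 371 but did not pass (-1.02 ± 0.29, limma adjusted p = 0.157). Of 27 bile acid genes only Abcc4, an efflux transporter of the basolateral membrane, passed, at 37.9, 41.2, 38.8 and 40.8 and 66.7, 123, 191 and 169. Abcc4 was 3.16-fold higher with GW3965 (log2 difference 1.66 ± 0.33, limma adjusted p = 0.0233). Without GW3965 library 10 its adjusted p was 0.0867. Cyp8b1, the sterol hydroxylase that sets the share of cholic acid, was at 6834, 6939.8, 4917 and 7379 and 2161, 718, 4846 and 4098 (limma adjusted p = 0.325).

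Apolipoprotein genes mostly did not pass, apart from a neighbouring pair that fell. Of 28 genes of lipoprotein assembly and remodelling 1 was higher (Pltp) and 1 lower (Apof), with a median of 0.02. Of all genes tested 0.605% were higher and 0.187% lower. Apof was at 7581, 9333, 8393 and 8964 normalized counts with vehicle and 6126, 4960.2, 5782 and 5787 with GW3965. Apof encodes an apolipoprotein that inhibits lipid transfer between particles. Apof was 1.51-fold lower with GW3965 (log2 difference -0.60 ± 0.12, limma adjusted p = 0.0284). Apon, an apolipoprotein gene 12.8 kb away on chromosome 10, was at 5118, 6569, 5774 and 6335 and 4389, 2950.1, 4189.8 and 4477 (-0.58 ± 0.13, limma adjusted p = 0.05). The 2 genes each had library 10 lowest and no overlap between groups. Without GW3965 library 10 neither passed (0.114 and 0.181).

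Several genes of peroxisomal fatty acid oxidation and other targets of the fatty acid receptor PPARA rose beside the lipogenic genes. Over all genes tested 0.605% were higher and 49.1% had positive differences. In the peroxisomal list 5 of 25 were higher and 0 lower (median 0.26, 17 positive), among 31 other PPARA targets 5 were higher and 0 lower (median 0.79, 22 positive), and in mitochondrial oxidation and ketogenesis 1 of 25 was higher (Acot2; median 0.15). Acot4 stands in both of the first 2 lists and Acot2 in both of the last 2.

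Ehhadh was at 6093, 4265, 4204 and 4384 normalized counts with vehicle and 13521, 59114, 44636 and 18514 with GW3965. Ehhadh encodes the bifunctional enzyme of the peroxisomal beta-oxidation spiral. Ehhadh was 6.09-fold higher with GW3965 (log2 difference 2.61 ± 0.38, limma adjusted p = 0.00333). The treated libraries spread widely, with library 10 highest and library 9 lowest, and the vehicle libraries were tight apart from library 1. Acaa1b was at 6978, 3309.6, 3205 and 3202 normalized counts with vehicle and 14572, 36286, 28379 and 15738 with GW3965. Acaa1b encodes the peroxisomal thiolase that ends each turn. Acaa1b was 5.62-fold higher with GW3965 (log2 difference 2.49 ± 0.31, limma adjusted p = 0.00102). Its close copy Acaa1a did not pass (0.27 ± 0.24), and the labels do not say how reads of the pair were assigned.

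Abcd3 was at 16398, 12839.6, 10805 and 12657 normalized counts with vehicle and 20469.9, 24420.0, 23764 and 19550.1 with GW3965. Abcd3 encodes a fatty acyl transporter of the peroxisomal membrane. Abcd3 was 1.69-fold higher with GW3965 (log2 difference 0.75 ± 0.12, limma adjusted p = 0.00793). The acyl-CoA thioesterases Acot1, Acot2 and Acot4 lie close together on chromosome 12, with 44.5 kb between the end of Acot2 and the start of Acot4, and all 3 rose, by 2.61 ± 0.45, 1.92 ± 0.31 and 1.05 ± 0.21 (limma adjusted p = 0.0109, 0.00793 and 0.0288). Acot1 was at 630.4, 158, 90.8 and 225 and 773, 2334, 1749 and 919, so that vehicle library 1 came close to treated library 9. Acot3, in the same cluster, had a log2 difference of 2.44 ± 0.57 and did not pass (limma adjusted p = 0.0554). These copies are near identical, and their separate values are uncertain for that reason.

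Hsd17b11 was at 4065, 3013, 2045 and 3100.2 normalized counts with vehicle and 5692, 12094, 9075 and 6617 with GW3965. Hsd17b11 encodes a steroid dehydrogenase found on lipid droplets. Hsd17b11 was 2.7-fold higher with GW3965 (log2 difference 1.43 ± 0.21, limma adjusted p = 0.00328). Retsat, a retinol saturase known as a PPAR target, differed by 1.33 ± 0.28 (limma adjusted p = 0.0349) and the fatty aldehyde dehydrogenase Aldh3a2 by 0.85 ± 0.19 (limma adjusted p = 0.0388). The omega-hydroxylases Cyp4a10 and Cyp4a14, usual markers of PPARA activity, had large differences (2.5 ± 0.60 and 2.97 ± 0.73) that did not pass (limma adjusted p = 0.068 and 0.0742). Their vehicle libraries spread from 798 to 17237 normalized counts for Cyp4a14 and from 1595 to 21094 for Cyp4a10. Other PPARA-linked genes did not pass: Cpt1a, which admits fatty acids to mitochondria, differed by -0.22 ± 0.14 and Pdk4 by 0.63 ± 0.43.

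Ehhadh, Acaa1b, Abcd3, Acot2 and Hsd17b11 kept their calls in all 8 fits that left out 1 library. With the 5 mitochondria-rich libraries left out, Acot2 did not pass (limma adjusted p = 0.0553), while Ehhadh, Acaa1b, Abcd3 and Hsd17b11 did. Acot1 kept its call in 7 of 8 (adjusted p = 0.0585 without GW3965 library 10), Acot4 and Retsat in 2 (up to 0.122 and 0.139 without vehicle library 3) and Aldh3a2 in 2 (up to 0.165 without GW3965 library 10).

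Small-molecule methylation, sulfation and purine breakdown each had a gene that changed, grouped here after the values were seen. Inmt was at 2306, 3847, 2505 and 3779 normalized counts with vehicle and 10885, 14793, 9714 and 7903 with GW3965. Inmt encodes an indolethylamine N-methyltransferase. Inmt was 3.48-fold higher with GW3965 (log2 difference 1.80 ± 0.20, limma adjusted p = 0.000284). Nnmt was at 541, 1349.7, 1821 and 2086 normalized counts with vehicle and 418, 185, 170.5 and 186 with GW3965. Nnmt encodes nicotinamide N-methyltransferase, which uses the same methyl donor. Nnmt was 5.78-fold lower with GW3965 (log2 difference -2.53 ± 0.49, limma adjusted p = 0.0214). The 2 methyltransferases thus moved in opposite directions, each with no overlap between groups, and they are the called members of a list of 21 methionine cycle and methyltransferase genes (median -0.15). Inmt kept its call in all 8 fits with 1 library left out, and Nnmt in 3 (up to 0.087 without GW3965 library 10).

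Sult1e1 was at 92.2, 90.2, 155 and 67.9 normalized counts with vehicle and 10.8, 30.0, 8.74 and 13.3 with GW3965. Sult1e1 (ENSMUSG00000029272; chromosome 5, 87575969 to 87591594, minus strand, mm10) encodes the oestrogen sulfotransferase. Sult1e1 was 6.51-fold lower with GW3965 (log2 difference -2.70 ± 0.44, limma adjusted p = 0.00793). It was the most negative difference among the called genes, and the highest treated library (10) was below the lowest vehicle library (4). Slc17a1 was at 240.0, 289.5, 249 and 241 normalized counts with vehicle and 140.0, 157, 67.3 and 101 with GW3965. Slc17a1 encodes a transporter of urate and phosphate. Slc17a1 was 2.28-fold lower with GW3965 (log2 difference -1.19 ± 0.24, limma adjusted p = 0.024). Uox, the peroxisomal urate oxidase, rose from 31209.5, 44853, 42575 and 44553 to 77151, 84218, 78999 and 54562 (0.85 ± 0.16, limma adjusted p = 0.0217). Sult1e1 kept its call in all 8 fits with 1 library left out. Slc17a1 and Uox did so in 4 of 8 (up to 0.0756 without vehicle library 3 and 0.0914 without GW3965 library 10).

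Ces2a was at 2362, 2628, 2586 and 2683 normalized counts with vehicle and 4266, 4199, 4985 and 3665 with GW3965. Ces2a encodes a carboxylesterase of drug and lipid ester hydrolysis. Ces2a was 1.66-fold higher with GW3965 (log2 difference 0.73 ± 0.12, limma adjusted p = 0.0105). Vehicle values lay within a narrow range, and the call held in all 8 fits with 1 library left out. Lipa, the lysosomal acid lipase that frees cholesterol from esters, was at 3840.4, 4019, 3144 and 3066 and 4522, 5920.2, 4948 and 4616 (0.51 ± 0.11, limma adjusted p = 0.0357). Lipa was the 1 called gene in a list of 28 lysosomal genes (median -0.04), which does not hold the called lysosomal protease gene Lgmn. Without vehicle library 3 the adjusted p of Lipa was 0.147. The taurine transporter Slc6a6 (0.80 ± 0.15) and the ceramide transfer protein gene Cert1 (0.68 ± 0.13) rose (limma adjusted p = 0.0214 and 0.0214). Without GW3965 library 10 the adjusted p was 0.0922 for Slc6a6 and 0.0914 for Cert1.

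Glucose metabolism showed no called gene among 30, where 0.792% of all genes tested were called. Of the 30 differences 21 were negative (median -0.20), against 6808 of 13379 over all genes tested. Pck1, the gluconeogenic enzyme, came nearest, at 77091, 74119, 79324 and 65206 with vehicle and 45136, 18874, 27742 and 53406 with GW3965 (-1.14 ± 0.28, limma adjusted p = 0.0757). Its 4 treated libraries were all below the 4 vehicle libraries, which held for 2.71% of all genes tested.

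Acute phase genes, which the liver makes in response to inflammatory cytokines, had mostly negative differences. Of 30 tested acute phase and metallothionein genes 3 were lower and 0 higher, 29 had negative log2 differences and the median was -0.40, where 0.187% of all genes tested were lower and 49.1% positive. In the libraries labelled Gata4LKO 0 of the 30 were called, 14 were positive and the median was -0.06. Limma called 0.247% of all genes tested there, and 6606 of 13379 were positive. With the 5 mitochondria-rich libraries left out of the control comparison the lower calls fell from 3 to 1 (Il6ra), at a median of -0.59, and the limma adjusted p was 0.0772 for Lcn2 and 0.0553 for Serpina3m. Lcn2 was at 148, 155, 214 and 419 normalized counts with vehicle and 98.3, 38, 42 and 46.5 with GW3965. Lcn2 encodes lipocalin 2, which binds bacterial siderophores. Lcn2 was 4.03-fold lower with GW3965 (log2 difference -2.01 ± 0.33, limma adjusted p = 0.00793). Library 9 was the highest treated library and still below every vehicle library.

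Il6ra was at 4171, 3824, 4058 and 4906 normalized counts with vehicle and 2077, 1441, 2362 and 2985 with GW3965. Il6ra encodes the receptor for interleukin-6, the main inducer of this response. Il6ra was 1.97-fold lower with GW3965 (log2 difference -0.98 ± 0.17, limma adjusted p = 0.0136). Serpina3m was at 7724, 6666, 8637 and 7872 normalized counts with vehicle and 3443, 1665, 3587 and 4645 with GW3965. Serpina3m encodes a serine protease inhibitor of a family of near-identical copies, so its separate value is uncertain. Serpina3m was 2.46-fold lower with GW3965 (log2 difference -1.30 ± 0.25, limma adjusted p = 0.0203). Its neighbour Serpina3n had the same sign (-0.72 ± 0.18) and did not pass (limma adjusted p = 0.0703).

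Saa1, the classical acute phase serum amyloid, was at 1481, 4052, 1488 and 1801 with vehicle and 621, 1629, 649.6 and 363 with GW3965 and did not pass (limma adjusted p = 0.184). The metallothioneins Mt1 and Mt2 did not pass either (-1.27 ± 0.37 and -1.55 ± 0.48). Scara5, a ferritin receptor, was at 1003, 1313, 1238 and 1389 and 188, 285, 768 and 663 (-1.59 ± 0.36, limma adjusted p = 0.0448), and F11, coagulation factor XI, at 2813, 3017, 2927 and 2755 and 1709, 1644, 1248 and 2063 (-0.81 ± 0.18, limma adjusted p = 0.0492). Both were without overlap. Lcn2 kept its call in all 8 fits with 1 library left out, Il6ra in 7 (0.0518 without vehicle library 4) and Serpina3m in 6 (up to 0.0756 without vehicle library 3). Scara5 kept it in 2 (up to 0.191 without GW3965 library 10) and F11 in 1 (up to 0.161 without GW3965 library 12).

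**Figure D4:**
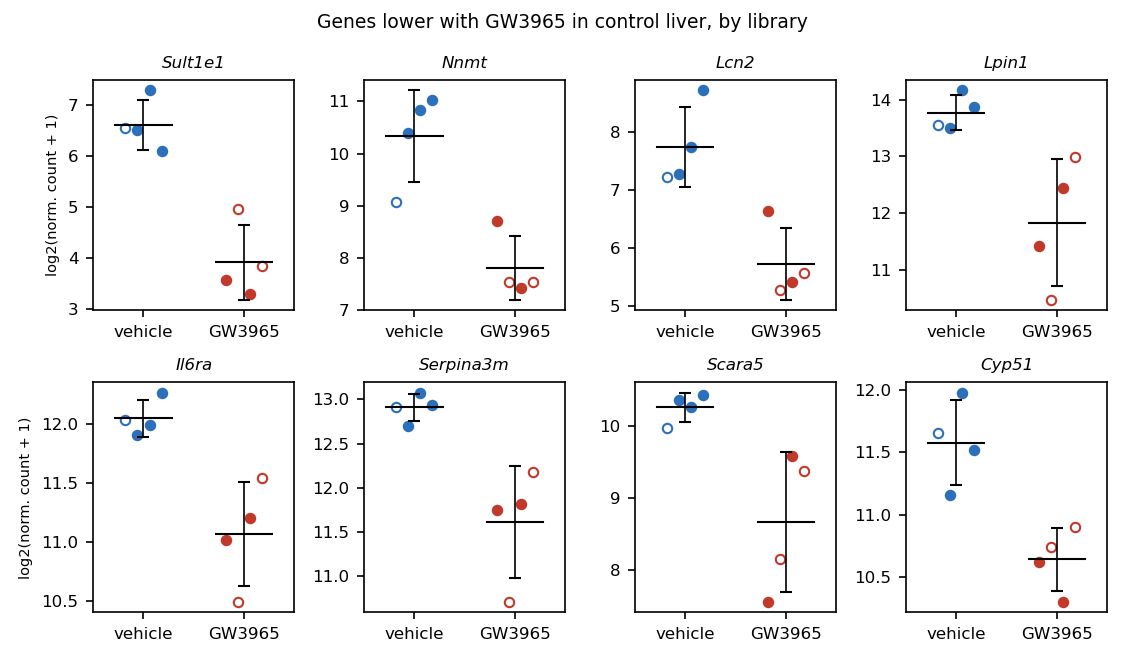
Log2(normalized count + 1) in each control library for 8 genes that fell, with vehicle in blue and GW3965 in red. Horizontal bars are group means, error bars are 1 SD (n = 4 each), and open circles are the 3 mitochondria-rich libraries. No treated point reaches the vehicle points in any panel, and the treated points of Lpin1 and Scara5 spread most widely.

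Several transcripts known from macrophages and other leukocytes also rose. Of 14 markers of Kupffer cells (the resident liver macrophages) and other macrophages 1 was higher and 0 lower, 13 were positive and the median was 0.49. The shares over all genes tested were 0.605% higher and 49.1% positive. In the libraries labelled Gata4LKO 0 of the 14 were called, 7 were positive and the median was 0.06. Limma called 0.247% of all genes tested there, and 6606 of 13379 were positive. The summed level of the 14 markers was 3604 to 4925 normalized counts in the control vehicle libraries and 5756 to 9116 in the control GW3965 libraries. None of the 14 was at 0 in all control libraries. In whole liver, more cells of a type and more RNA per cell cannot be told apart. Cd5l was at 591, 608, 472 and 774 normalized counts with vehicle and 2019, 1200.0, 1579.9 and 978 with GW3965. Cd5l encodes a secreted macrophage protein and is a known LXR target in macrophages. Cd5l was 2.31-fold higher with GW3965 (log2 difference 1.21 ± 0.21, limma adjusted p = 0.0126). The groups did not overlap, and library 9 was the highest. In libraries labelled Gata4LKO Cd5l was at 1129 ± 135 with vehicle and 1345 ± 284 with GW3965.

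The defining Kupffer markers gave a mixed picture. Clec4f was at 816, 805, 638 and 876 with vehicle and 764, 1136, 1479 and 1121 with GW3965 (0.49 ± 0.17, limma adjusted p = 0.272), with overlap, and Vsig4 differed by 0.29 ± 0.16 (limma adjusted p = 0.687). Timd4, a receptor of resident macrophages, was at 131, 90.2, 48.3 and 59.2 and 181, 218, 154 and 259 (1.37 ± 0.35, limma adjusted p = 0.0941). Cd68 differed by 0.86 ± 0.22 (limma adjusted p = 0.0856) and Adgre1 by 0.95 ± 0.31 (limma adjusted p = 0.25). With the 5 mitochondria-rich libraries left out, 3 of the 14 markers were called (Cd5l, Timd4 and Adgre1), with a median of 0.66, and Cd5l differed by 1.56 (limma adjusted p = 0.00616).

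Beyond that list, several called genes are known from myeloid cells, and were picked out after their values were seen. Fcgr1 was at 12.6, 15.6, 9.46 and 14.6 normalized counts with vehicle and 49.2, 53, 30.6 and 26.6 with GW3965. Fcgr1 encodes the high-affinity receptor for immunoglobulin G. Fcgr1 was 2.83-fold higher with GW3965 (log2 difference 1.5 ± 0.30, limma adjusted p = 0.0276). The Src-family kinase gene Fgr (1.27 ± 0.27), the tetraspanin Cd53 (1.12 ± 0.24), the exchange factor Cyth4 (1.01 ± 0.18), the signalling gene Themis2 (1.07 ± 0.24) and the cytokine Il1a (1.27 ± 0.27) rose as well (limma adjusted p = 0.0352, 0.0346, 0.0115, 0.041 and 0.0346). In libraries labelled Gata4LKO none of these genes passed, where 0.247% of all genes tested did. Means there with vehicle and GW3965 were 75.7 and 79.9 for Cyth4, 84.5 and 103 for Cd53 and 66.9 and 70.1 for Themis2. They were 24.4 and 38.0 for Fcgr1, 29.4 and 40.5 for Fgr and 33.6 and 53.1 for Il1a. Each vehicle mean there was above that of control (41.8, 39.1, 34.4, 13.1, 15.9 and 22.8 in the same order). The part of the control vehicle level was not tested.

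These are low transcripts in whole liver. Cyth4 was at 36.6, 49, 34.1 and 47.6 normalized counts with vehicle and 90.0, 99, 79.6 and 71.7 with GW3965, and Il1a at 21.5, 24.5, 19.9 and 25.2 and 86.7, 57, 38.5 and 51.8, both with no overlap. The lysosomal protease Lgmn (0.60 ± 0.13), the heparan sulfate proteoglycan Sdc3 (0.81 ± 0.18) and the prothrombinase Fgl2 (1.39 ± 0.29) rose too (limma adjusted p = 0.0357, 0.0448 and 0.0346). In libraries labelled Gata4LKO their means were 742, 714 and 68.2 with vehicle and 862, 795 and 91.8 with GW3965. Il18bp, the secreted inhibitor of interleukin-18, was at 67, 100.2, 69.1 and 111 and 171, 189, 169.6 and 163 (1.02 ± 0.19, limma adjusted p = 0.0175). Markers of T and B lymphocytes (0 of 6 tested called), of neutrophils and recruited monocytes (0 of 5) and of sinusoidal endothelium (0 of 12) did not pass. In control 0.792% of all genes tested passed. Of the 12 endothelial markers 11 were positive in control (median 0.27) and 12 in libraries labelled Gata4LKO (median 0.43). Over all 13379 genes tested 6571 and 6606 were positive. The part of cell composition in these results was not tested.

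The guanylate-binding proteins Gbp2b and Gbp4, induced by interferon gamma, were higher. Gbp4 was at 64.4, 42.3, 29.3 and 40.8 and 264, 86, 101 and 95.6 (1.5 ± 0.34, limma adjusted p = 0.05), and Gbp2b, one of several close copies and uncertain for that reason, at 78.3, 45.7, 15.1 and 21.4 and 172, 127, 181 and 85 (2.0 ± 0.45, limma adjusted p = 0.0476). Neither stands in the interferon list, of which 0 of 32 passed (median 0.29, 25 positive). Of all genes tested 0.792% passed and 49.1% were positive. In libraries labelled Gata4LKO the means with vehicle and GW3965 were 123 and 142 for Gbp2b and 78.3 and 75.7 for Gbp4. The death receptor gene Fas was at 215, 186, 143 and 199.9 and 257, 407, 322 and 344 (0.83 ± 0.18, limma adjusted p = 0.0346). Cd5l kept its call in 7 of 8 fits with 1 library left out (0.0526 without vehicle library 3), Cyth4 and Il18bp in 6 (up to 0.0628 and 0.0834 without GW3965 library 10), and Fcgr1 and Fgl2 in 3 (up to 0.114 without GW3965 library 10 and 0.115 without GW3965 library 12). The other myeloid-known genes, Gbp2b, Gbp4 and Fas kept theirs in at most 2 of 8, with adjusted p up to 0.195 (Gbp4 without vehicle library 3).

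Some of the steepest rises were in genes with little known role in liver. Adam11 was at 58.1, 86.9, 109 and 142 normalized counts with vehicle and 638, 1587, 1011 and 523 with GW3965. Adam11 encodes a catalytically inactive member of the ADAM family known from neurons. Adam11 was 9.02-fold higher with GW3965 (log2 difference 3.17 ± 0.48, limma adjusted p = 0.00474). Art2a was at 6.32, 2.23, 3.78 and 2.91 normalized counts with vehicle and 85.8, 28, 69.1 and 37.2 with GW3965. Art2a, an ADP-ribosyltransferase gene of T cells with a close copy, was close to the floor in the control vehicle libraries. The log2 difference was 3.47 ± 0.54 (limma adjusted p = 0.00572), a value that depends on the 1 added to each normalized count. In libraries labelled Gata4LKO Art2a was not at that floor with vehicle, at 32.5 ± 27.8 (7.01 to 72.1), and was at 16.1 ± 4.81 with GW3965. Tmc3, of the transmembrane channel-like family, had at most 1.89 normalized counts with vehicle and 65, 25, 11.4 and 7.97 with GW3965. Its log2 difference of 3.46 ± 0.65 (limma adjusted p = 0.0188) depends on the 1 added to each value.

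Krt23 was at 36.6, 2.23, 14.2 and 17.5 normalized counts with vehicle and 60.0, 114, 65.6 and 61.1 with GW3965. Krt23 encodes a keratin. Krt23 was 5.4-fold higher with GW3965 (log2 difference 2.43 ± 0.50, limma adjusted p = 0.0316). Tmem26, a membrane protein gene, was at 7.58, 8.91, 4.73 and 7.77 and 51.7, 21, 42 and 27.9 (2.10 ± 0.39, limma adjusted p = 0.0175), and the ubiquitin ligase gene Rnf186 at 15.2, 32.3, 26.5 and 32 and 151, 176, 84.8 and 50.5 (1.98 ± 0.40, limma adjusted p = 0.0259). All 3 had no overlap. D130043K22Rik, a gene of neuronal migration, rose by 1.65 ± 0.24 (limma adjusted p = 0.00328), the kinesin Kif21b by 1.67 ± 0.37 (limma adjusted p = 0.0396) and the carboxylesterase-like pseudogene Gm8798 by 2.42 ± 0.52 (limma adjusted p = 0.0368).

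Among the genes that fell were several without assigned function. The long non-coding RNA genes Gm26608 and Gm36264 were at 67, 69, 57.7 and 45.6 and 48, 39, 73.8 and 50.5 with vehicle and at 20.0, 10.0, 17.5 and 13.3 and 19.2, 7.0, 10.5 and 10.6 with GW3965 (-1.93 ± 0.36 and -2.11 ± 0.40, limma adjusted p = 0.0175 and 0.0192). Gm26608 lies beside Insig1 on chromosome 5, on the opposite strand. Gm48199 differed by -2.60 ± 0.59 (limma adjusted p = 0.0464), the olfactory receptor gene Olfr1034 by -1.32 ± 0.23 (limma adjusted p = 0.0108) and the linker histone gene H1f2 by -0.80 ± 0.16 (limma adjusted p = 0.0218). Adam11, Art2a and D130043K22Rik kept their calls in all 8 fits with 1 library left out. With the 5 mitochondria-rich libraries left out, Adam11 did not pass (limma adjusted p = 0.0631), while Art2a and D130043K22Rik did (0.0234 and 0.0234). Without GW3965 library 10 the adjusted p was 0.0867 for Tmc3, 0.128 for Krt23, 0.114 for Rnf186, 0.132 for Kif21b, 0.167 for Gm8798, 0.0867 for Gm26608, 0.087 for Gm36264, 0.197 for Gm48199, 0.052 for Olfr1034 and 0.0951 for H1f2. Without vehicle library 3 it was 0.0714 for Tmem26.

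The same treatment in mice labelled Gata4LKO gave a response of the same sign for most of these genes. In the libraries labelled Gata4LKO, Gata4 itself was at 194 ± 44.2 with vehicle and 219 ± 41.2 with GW3965. In control libraries it was at 153 ± 27.3 and 221 ± 44.1. Its mean in the libraries labelled Gata4LKO was thus higher with vehicle and nearly equal with GW3965. A whole-gene count can include exons outside the deleted part, and whether it does so here was not tested. In those 9 libraries limma called 33 genes for GW3965 (0.247%), 27 higher and 6 lower. Of the 81 genes higher in control 75 had positive differences there, with a median of 0.66, and of the 25 lower in control 16 had negative ones, with a median of -0.20. Both comparisons called 17 genes in the same direction, which are 16% of the control calls and 51.5% of the calls in libraries labelled Gata4LKO. The comparisons share no library, and 1 fit gave both.

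Of the 106 control calls 99 were smaller in size in the libraries labelled Gata4LKO, and these genes were chosen by their control values. Srebf1 differed by 2.26 ± 0.40 in control and 1.44 ± 0.38 there, Fasn by 2.39 ± 0.50 and 1.74 ± 0.48, Elovl6 by 1.88 ± 0.24 and 1.29 ± 0.23 and Abca1 by 1.17 ± 0.18 and 0.84 ± 0.17. Scd1 differed by 3.10 ± 0.60 in control and 3.15 ± 0.57 in the libraries labelled Gata4LKO, Scd2 by 2.53 ± 0.20 and 2.38 ± 0.19, and Abcg8 by 1.33 ± 0.18 and 1.25 ± 0.17. Ehhadh differed by 2.61 ± 0.38 and 2.20 ± 0.36. These last 4 genes, picked out after their values were seen, passed in both (limma adjusted p in libraries labelled Gata4LKO = 0.0252, 5.16e-06, 0.00769 and 0.0122). Elovl6 passed in both as well (limma adjusted p there = 0.0236), while Srebf1, Fasn and Abca1 did not pass there (0.135, 0.147 and 0.0518).

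Other control calls had differences near 0 or of the other sign in the libraries labelled Gata4LKO. Sult1e1 differed by 1.25 ± 0.42 there, Lpin1 by 0.52 ± 0.37, Nnmt by 0.03 ± 0.46, Lcn2 by 0.25 ± 0.31 and Il6ra by 0.06 ± 0.17. None of these differences passed there. Art2a differed by -0.61 ± 0.51 and Ces2a by -0.23 ± 0.12, and Cd5l by 0.23 ± 0.20. The difference between the responses was tested directly as labelled Gata4LKO minus control. It passed for 2 of 13379 genes (0.0149%) by limma, 0 by edgeR and 26 by DESeq2, with 622 at an unadjusted p below 0.05 by limma. Of the 106 control calls only Sult1e1 passed (3.95 ± 0.60, limma adjusted p = 0.0374), and it kept that call in 4 of 17 fits with 1 library left out (adjusted p up to 0.148 without Gata4LKO vehicle library 6). Lpin1 (2.46 ± 0.54, limma adjusted p = 0.22), Nnmt (2.56 ± 0.67, 0.409), Lcn2 (2.26 ± 0.45, 0.149), Art2a (-4.09 ± 0.74, 0.0817) and Ces2a (-0.96 ± 0.17, 0.0817) did not, so limma did not show their responses to differ between the 2 sets of mice. In the authors' deposited table of that difference Art2a (adjusted p = 2.02e-05), Ces2a (0.000482), Lcn2 (0.00278), Lpin1 (0.0144) and Il6ra (0.0416) passed, and Nnmt (0.14) did not, so that the call for the first 5 genes depends on the test.

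**Figure D5:**
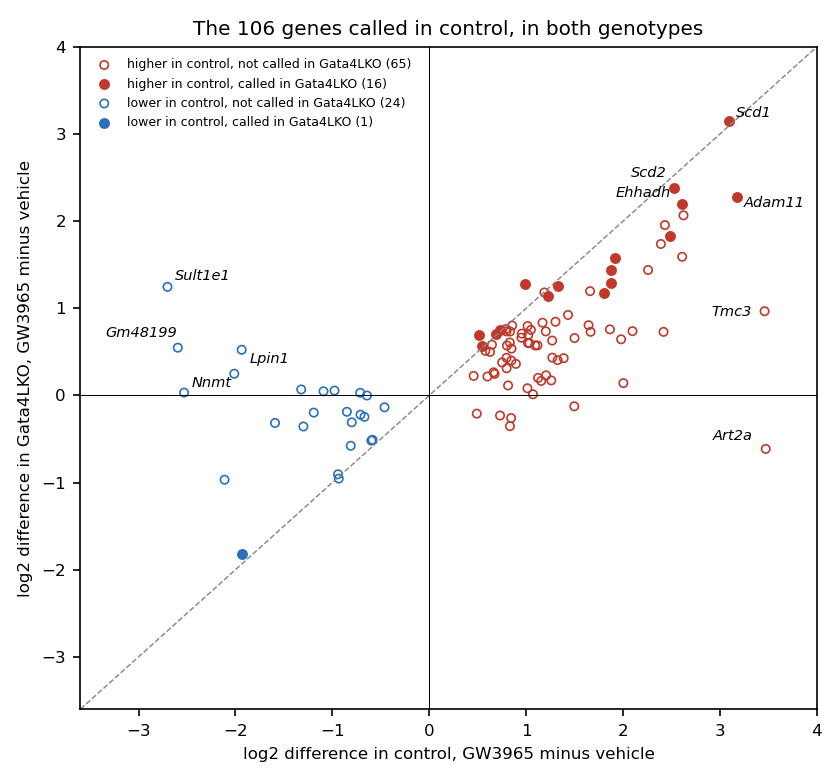
The 106 genes called in control liver, each placed by its log2 difference, GW3965 minus vehicle, in control (x axis) and in libraries labelled Gata4LKO (y axis). Red points were higher and blue points lower in control, filled points (16 and 1) were also called there, and the dashed line marks equal differences. Most red points lie above 0 and below the dashed line, and the blue points scatter around 0 on the y axis.

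The authors' deposited table for this comparison called 221 of 13655 genes (1.62%), 154 higher and 67 lower, and held all 106 genes named by limma. The other 115 had the same sign in both, with limma adjusted p from 0.0517 to 0.653, and 53 of them were below 0.1. Those with the lowest adjusted p in the authors' deposited table included the acid nuclease Dnase2b, at 630.4, 611, 470.3 and 468 and 673, 2565, 1214 and 987, the steroid reductase Srd5a1, at 961, 1051, 941 and 849 and 1735, 2378, 1768 and 1169, and the peroxisomal and mitochondrial carnitine acetyltransferase Crat, at 1079, 391, 464 and 517 and 747, 2316, 1549 and 1475. Their limma adjusted p was 0.0543, 0.063 and 0.0596. Tff3, a mucin-associated trefoil peptide, was at 65.7, 519, 546 and 409 and 19.2, 55, 51.6 and 29.2 (limma adjusted p = 0.0884). Serpina3c was the most extreme of these, at 3043, 11.1, 2672 and 2.91 with vehicle and 5.0, 14, 2.62 and 3.99 with GW3965 (limma adjusted p = 0.653). Its high values came from vehicle libraries 1 and 3 alone, and the other vehicle libraries were as low as the treated group.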

How the data were processed

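Liver RNA, purified with TRIzol and spin columns and made into libraries with a KAPA mRNA kit per the labels' protocols, was sequenced in 17 libraries, 8 of which enter the comparison described. The authors deposited 1 table of normalized signal per gene, scaled between libraries by size factors. Dividing each library's values by its smallest step gave whole reads (100% within 0.05 read). The authors' comparison tables give each gene's log2 fold change with its p-value and adjusted p-value, per the file headers. Alignment used STAR 2.6.0c with mm10, and FastQC and DESeq2 are named too, per the submitters' processing notes. How reads were counted, on which annotation and with which strand setting, is not stated in these sources. Positions are from GENCODE M21.

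The filter asked for 10 normalized counts or more in 4 or more libraries, which 13379 genes met. Log2(normalized count + 1) was fitted with limma-trend (limma 3.58.1, R 4.3.3), 1 coefficient per group and all 17 libraries in 1 fit, with Benjamini-Hochberg adjustment over all genes and a threshold of 0.05. The added 1 makes differences of low genes too small. On simulated data for this comparison, 53% of genes changed 2-fold and 82% of genes changed 4-fold were recovered among 13379, with 9 false calls. Apart from depth, the simulated libraries held no differences shared across genes, such as a mitochondrial share. These figures therefore need not hold for the real libraries. Alternatives were edgeR 4.0.16 and DESeq2 1.42.0 on recovered reads, other scalings, pseudocounts and filters, array weights, only the control libraries, each library left out, and, chosen after seeing the data, leaving out the libraries with over 10% mitochondrial counts or using that share as a covariate. The genes named are called genes (always the 15 largest rises and the 10 largest falls, of which ENSMUSG00000086771 is left out for want of a symbol), list members past the threshold or defining a pathway, markers, and the genes lowest in adjusted p in the authors' deposited table that limma did not call. A called gene of peroxisomal oxidation is not reported here by name. The comparison, its gene lists and the genes named were chosen with earlier results of these data known.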

Additional observations from a re-analysis of the deposited data

Results flagged for a closer look

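A gap between 1 library and the other 3 of its group exceeded Dixon's 95% limit in 14 of 248 groups of 4 libraries. The 248 groups were the named genes in both control groups. Chance gives about 1 in 20, and the count found is near that share. The gaps that follow therefore only describe single values. Vehicle library 1, one of those with a high mitochondrial share, was the highest of its group for Ehhadh (6093 normalized counts), Acaa1b (6978) and Gsta4 (884) and the lowest for Uox (31210). Vehicle library 2 was the lowest for Mylip (151) and the highest for Saa1 (4052). GW3965 library 9 was the highest of the treated group for Acot3 (1474), Nnmt (418), Lcn2 (98.3) and Gbp4 (264). GW3965 library 10 was the highest for Mlxipl (10266) and Krt23 (114), and GW3965 library 13 for Vsig4 (384) and Alb (1722490). The part of single animals or of RNA quality in these gaps was not tested.

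The response to GW3965 differed between control libraries and those labelled Gata4LKO by a direct test for 2 genes. For Sult1e1 the Gata4LKO minus control difference was 3.95 ± 0.60 (limma adjusted p = 0.0374). In libraries labelled Gata4LKO Sult1e1 was at 12.8 ± 4.34 normalized counts with vehicle and 34.8 ± 20.1 with GW3965, the reverse of the order in control. That Gata4LKO difference did not pass by itself (limma adjusted p = 0.265). For the processed pseudogene Gm5345 the Gata4LKO minus control difference was 7.54 ± 1.18 (limma adjusted p = 0.0374). Its difference in control did not pass by itself (-2.47 ± 0.86, limma adjusted p = 0.302), and the control groups overlapped. Control vehicle libraries held 30.3, 49.0, 53.9 and 66.0 normalized counts of Gm5345 and control GW3965 libraries 0.833, 1.00, 35.8 and 43.8, so that 2 of the 4 treated libraries were near 0. Libraries labelled Gata4LKO held 0.796 ± 0.676 with vehicle and 64.1 ± 34.8 with GW3965. Without 1 library at a time Sult1e1 was called in 4 and Gm5345 in 3 of 17 fits, with adjusted p up to 0.148 for both (without Gata4LKO vehicle library 6).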

How the results depend on the processing

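For GW3965 in control liver, 106 genes were called. The number was 57 with no filter on low values, 247 with array weights, 19 with only the 8 control libraries in the fit, and 226 by DESeq2 on recovered reads. It was 64 without the 5 mitochondria-rich libraries and 202 with that share as a covariate, and 22 to 109 with 1 library left out. Pseudocounts of 0.5 and 5, both other scalings and edgeR gave 97 to 108. In libraries labelled Gata4LKO the 33 calls became 355 with array weights, 194 by DESeq2, and 6 to 78 with 1 library left out. For the difference between the responses, 2 calls became 40 with array weights, 26 by DESeq2, 0 by edgeR, 4 with the covariate, 1 without the 5 libraries and 0 to 9 with 1 library left out. The causes were not tested.

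Of 124 named genes, 81 were called, 9 of them under every alternative. The sign turned for Apoe (-0.0459 without GW3965 library 10 and -0.0967 without the 5 libraries; -0.0459 to 0.275 with 1 library left out) and for Nr1h2 (0.0441 without the 5 libraries). Without the 5 libraries the acute phase median was -0.59, with 1 lower call in place of 3. No paired analysis was possible because the groups share no replicate number. Transcripts of a few reads, such as Tmc3 and Art2a in the control vehicle libraries, are limited by depth.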

Other observations

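Of 36 genes of drug metabolism 2 were higher and 0 lower, with log2 differences from -1.50 to 1.63 (median 0.23), where 0.605% of all genes tested were higher. The groups did not overlap in 7 of the 36, against 5.84% of all genes tested. The 2 called genes were Ces2a and the glutathione transferase Gsta4, which was at 884, 529, 548 and 509 normalized counts with vehicle and 951, 1065, 1076 and 1109 with GW3965 (0.80 ± 0.18, limma adjusted p = 0.05). Gsta4 was called in 1 of 8 fits with 1 library left out, with adjusted p up to 0.179. None of 20 pericentral genes (median -0.13) and 1 of 20 periportal genes (median -0.12) passed, and none of 19 clock genes (median -0.02), 20 cell cycle genes (median -0.09) or 26 genes of the unfolded protein and integrated stress responses (median -0.13).

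Of 21 genes known for male-biased expression 1 was lower (median -0.26), and of 16 tested with female-biased expression 1 was higher (median 0.26). All 6 erythroid markers had negative differences, with a median of -0.76, and none passed, where 6808 of 13379 genes tested were negative. The 9 tested mitochondrially encoded genes had positive differences (median 0.34) that became negative in median (-0.18) without the 5 mitochondria-rich libraries. None of 22 genes for secreted liver hormones passed (median -0.13).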
